A study of Mus musculus with 32 samples.

Results

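The effect of dietary protein during corticosterone (Cort) treatment was compared between the liver and the epididymal fat pad (eWAT). The measurement was a difference of differences: the high-protein diet (HPD) against the normal-protein diet (NPD) in liver, minus the same contrast in eWAT. It used the 16 Cort libraries of the 32 in the series, with 4 libraries in each of the groups liver NPD, liver HPD, eWAT NPD and eWAT HPD. All came from male mice of 10 weeks, of the strain C57BL/6 in the labels and C57BL/6J in the study's methods, with no genetic alteration named in the labels, and every group received Cort, given in the drinking water, for 7 days. The NPD held 20% and the HPD 60% of energy as protein, and carbohydrate was lowered in the HPD to keep the diets equal in energy, so more protein and less carbohydrate cannot be told apart. Only one dose of Cort and male mice were measured, and the vehicle libraries entered none of the main values.

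Cort is the main glucocorticoid of mice and acts through the glucocorticoid receptor, a transcription factor that in liver raises amino acid catabolism and glucose output and in fat affects both the synthesis and the breakdown of triglyceride. Dietary carbohydrate feeds glycolysis and new fat synthesis in both tissues, and protein above need is broken down chiefly in liver. Interferon-stimulated genes form another program that most cell types can switch on, in which receptors of type I and type III interferons drive antiviral effectors such as Isg15 and Rsad2.

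The libraries were QuantSeq 3′ libraries, in which a transcript gives about 1 fragment near its 3′ end, so that counts do not grow with gene length. Total counts ranged from 9794683 to 17447524. Levels are given as counts per 1000000 counts of the library (CPM) after TMM scaling within each tissue. An effect is the fitted log2 HPD/NPD ratio with its standard error (SE), and a gene was called at an adjusted p under 0.05 (edgeR's quasi-likelihood test). The summed level of 13 hepatocyte markers was 120700 to 149780 CPM in the NPD livers, 173690 to 272540 CPM in the HPD livers and 2858 to 5052 CPM in eWAT, and that of 8 adipocyte markers was 30983 to 39008 CPM in eWAT and 49.3 to 92.9 CPM in liver. A few libraries stood apart. Liver HPD 1 had the lowest TMM factor (0.784), 42.2% of its counts in its 10 most abundant genes against 30.4% to 34.0% in the other livers, and the highest level of many interferon-stimulated genes. Muscle markers summed to 565 CPM in liver NPD 3 against 1.69 to 6.78 CPM in the other NPD livers, and epididymis and testis markers to 14071 CPM in eWAT HPD 4 against 1.42 to 14.2 CPM in the other HPD pads.

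On the HPD, 21 genes rose in both tissues, among them 10 of a list of interferon-stimulated genes and both adult β-globin genes, and 8 genes, among them Cdkn1a, Tsc22d3 and Pcx, fell in both. In liver, 298 of 11442 genes tested were higher on the HPD (2.6%) and 261 were lower (2.28%). In eWAT, 57 of 13563 were higher (0.42%) and 108 were lower (0.796%). The spread between libraries was larger in eWAT, with a biological coefficient of variation of 0.321 against 0.222 in liver, and over the genes measured in both tissues the median size of the effect, without its sign, was 0.18 on the log2 scale in eWAT and 0.24 in liver.

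Of the 10594 genes measured in both tissues, 116 had a more positive effect in liver than in eWAT (1.09%) and 123 a more negative one (1.16%). Without TMM factors, scaled by library totals alone, the median difference over all genes moved to -0.24 on the log2 scale and the split became 53 more positive and 331 more negative. The mean of both effects was called as positive for 160 genes (1.51%) and as negative for 202 (1.91%). Across genes, which are not independent replicates, the effects in liver and in eWAT showed almost no relation (Pearson's r = 0.05, Spearman's rho = -0.01). Of the 469 of these genes called in liver, 280 had the same sign in eWAT (59.7%), and of the 145 called in eWAT, 91 had the same sign in liver (62.8%), against 48.7% of all genes.

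Genes were grouped by these tests. An effect was shared where a gene was called in both tissues with the same sign, which held for 29 genes, 21 higher and 8 lower on the HPD. That is 6.18% of the 469 genes called in liver and 20% of the 145 called in eWAT among those measured in both. Opposite effects, with the difference called and an unadjusted p under 0.05 in each tissue, were found for 76 genes, of which 38 were higher in liver and lower in eWAT and 38 the reverse. A larger effect in liver, with the difference and the liver effect called and an eWAT effect that was not past an unadjusted p of 0.05, was found for 104 genes, 41 higher and 63 lower on the HPD. The mirror class, larger in eWAT, held 18 genes, 4 higher and 14 lower. A further 293 genes called in liver only and 90 called in eWAT only were not called for the difference, and for them an effect particular to one tissue was not shown.

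**Figure D1:**
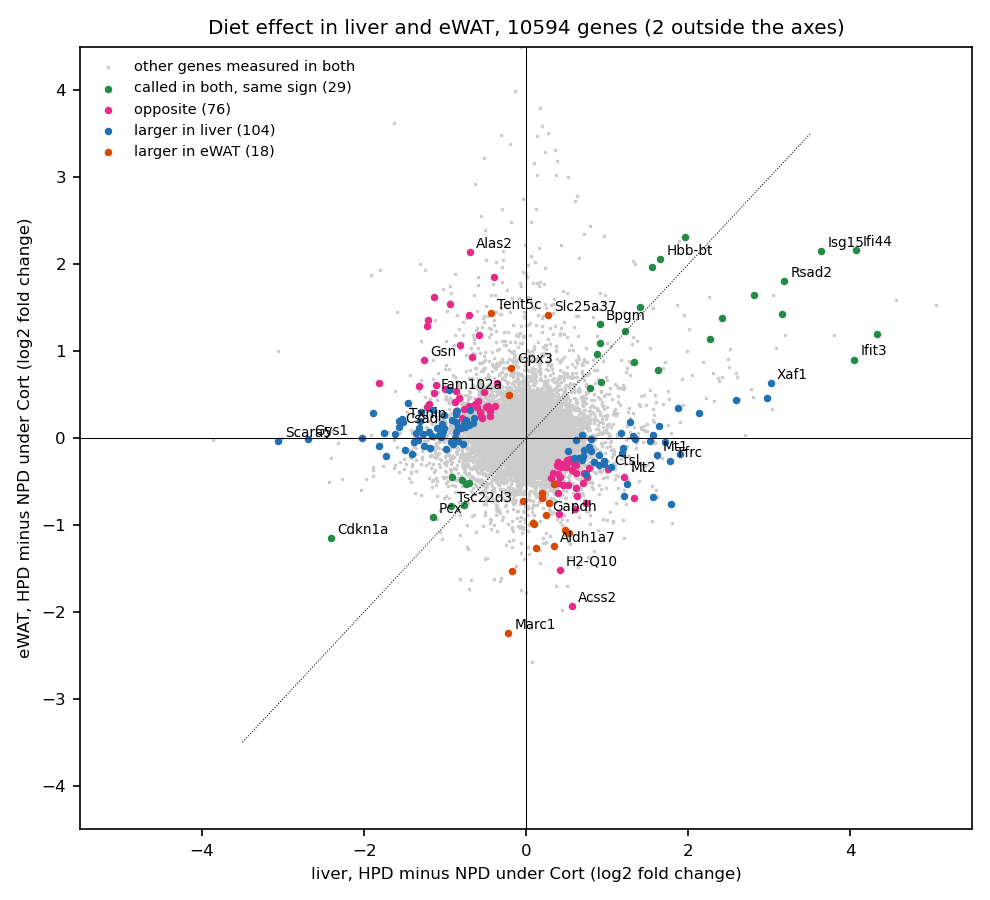
Diet effect (log2 HPD/NPD under Cort) in eWAT on the vertical axis against that in liver on the horizontal axis, 1 point for each of 10594 genes measured in both tissues, with 2 genes outside the axes and the dotted line at equal effects. Coloured points are the 29 shared, 76 opposite, 104 larger in liver and 18 larger in eWAT genes; most shared genes lie in the upper right, with liver effects of up to 4.33 (Ifit1).

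Of the 29 shared genes, 10 were on the list of interferon-stimulated genes. Many such genes carry in their promoters the interferon-stimulated response element, whose core is searched for here as GAAANNGAA, in which N is any base, on both strands. The core was found between 250 bases before and 50 bases after the start of 10 of the 24 shared genes with a RefSeq promoter (41.7%), against 938 of 10650 tested genes (8.81%) and 2638 of all 27025 promoters (9.76%). It was found in 6 of 57 opposite genes (10.5%), in 9 of 82 genes with a larger effect in liver (11%) and in 0 of 11 with a larger effect in eWAT. Of all interferon-stimulated genes tested, whatever their class, 18 of 25 with a promoter held the core (72%). Of the shared genes on that list it was 6 of 8 (75%), so the core is not particular to shared effects. The 150 bases before the start are shown for 4 shared genes, chosen after their values were seen because they are antiviral effectors with large effects. They are read 5′ to 3′ on the strand of the gene from RefSeq sequence of GRCm38.p6, with bases covered by a core in capitals.
Isg15, chr4:156200819-156200968, minus strand: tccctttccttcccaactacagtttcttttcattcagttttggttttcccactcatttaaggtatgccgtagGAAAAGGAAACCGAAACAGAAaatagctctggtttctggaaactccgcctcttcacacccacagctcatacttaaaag
Ifit1, chr19:34640739-34640888, plus strand: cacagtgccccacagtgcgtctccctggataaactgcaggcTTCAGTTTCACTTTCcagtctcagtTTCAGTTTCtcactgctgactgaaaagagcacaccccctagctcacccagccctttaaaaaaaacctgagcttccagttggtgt
Ifit3, chr19:34583379-34583528, plus strand: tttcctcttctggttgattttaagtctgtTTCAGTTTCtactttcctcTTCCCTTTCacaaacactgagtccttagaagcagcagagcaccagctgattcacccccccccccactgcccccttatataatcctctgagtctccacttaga
Rsad2, chr12:26456453-26456602, minus strand: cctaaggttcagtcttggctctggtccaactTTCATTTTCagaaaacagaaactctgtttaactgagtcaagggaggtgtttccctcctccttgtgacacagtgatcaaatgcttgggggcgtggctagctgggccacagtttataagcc
Isg15 has 3 overlapping matches, the first 78 bases and the last 66 bases before the start. Ifit1 has 3, Ifit3 has 2 of the 3 in its promoter, and Rsad2 has 1. A match describes the letters of the window and does not show that a factor binds there.

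Isg15, a ubiquitin-like antiviral modifier (ENSMUSG00000035692, GRCm38 chr4:156199424-156200818), stood at 14.2, 23.4, 12.98 and 13.01 CPM in the NPD livers and at 398, 137, 128 and 130.5 CPM in the HPD livers. The eWAT levels were 5.74, 2.92, 7.23 and 3.82 CPM on the NPD and 13.8, 23.4, 24.3 and 26.4 CPM on the HPD. No HPD library of either tissue overlapped its NPD group, and liver HPD 1 was the highest of all. The effect was 3.64 ± 0.46 (SE; adjusted p = 0.00287) in liver and 2.16 ± 0.29 (SE; adjusted p = 0.000257) in eWAT. The difference of 1.49 ± 0.58 (SE; adjusted p = 0.2) did not pass.

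Rsad2, or viperin, which makes a chain-terminating nucleotide (ENSMUSG00000020641, GRCm38 chr12:26442746-26456452), stood at 11.51, 21.9, 20.99 and 18.6 CPM in the NPD livers and at 168, 184, 139 and 173 CPM in the HPD livers. It had the smallest p of all genes in liver, and liver HPD 1 lay within its group. In eWAT it stood at 8.32, 12.1, 10.8 and 16.6 CPM on the NPD and at 26.5, 49.7, 55.6 and 35.0 CPM on the HPD, again without overlap. Its effects were 3.19 ± 0.20 (SE; adjusted p = 6.24e-07) in liver and 1.80 ± 0.25 (SE; adjusted p = 0.000873) in eWAT. The larger effect in liver passed (difference 1.38 ± 0.33 SE, adjusted p = 0.0339), but the adjusted p was above 0.05 in 9 of the 16 fits that left out 1 library, up to 0.0695.

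Ifit3, which binds viral RNA together with Ifit1, had the largest difference between the tissues among the shared genes. Its levels were 9.38, 16.1, 16.2 and 12.8 CPM in the NPD livers and 435, 187, 157 and 121 CPM in the HPD livers. Those in eWAT were 13.6, 16.1, 18.9 and 17.4 CPM on the NPD and 27.6, 31.6, 34.3 and 29.9 CPM on the HPD. Both tissues were thus higher on the HPD in every library, by 4.05 ± 0.43 (SE; adjusted p = 0.000956) in liver and 0.90 ± 0.17 (SE; adjusted p = 0.00655) in eWAT. The difference of 3.14 ± 0.45 (SE; adjusted p = 0.00294) was called in all 16 fits that left out 1 library.

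Iigp1, an interferon-inducible GTPase, rose by nearly the same amount in both tissues from very different levels. It stood at 364, 412, 384 and 331 CPM in the NPD livers and at 1289, 767, 774 and 648 CPM in the HPD livers, against 13.4, 12.1, 14.5 and 16.4 CPM on the NPD and 33.6, 26.6, 44.4 and 28.3 CPM on the HPD in eWAT. The effects were 1.22 ± 0.20 (SE; adjusted p = 0.00236) and 1.24 ± 0.19 (SE; adjusted p = 0.00107), and the difference between them was -0.02 ± 0.26. For Ifi44, the effects were 4.07 ± 0.39 (SE; adjusted p = 0.000223) in liver and 2.16 ± 0.25 (SE; adjusted p = 5.95e-05) in eWAT, and for Rtp4, a chaperone of receptor transport that is also induced by interferon, 2.26 ± 0.20 (SE; adjusted p = 1.38e-05) and 1.14 ± 0.21 (SE; adjusted p = 0.00571). Their differences passed with all libraries (Ifi44 1.91 ± 0.47, Rtp4 1.13 ± 0.29) but not in 11 and 12 of the 16 fits without 1 library.

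Over the whole list of interferon-stimulated genes, 30 of 31 tested in liver were called as higher on the HPD, with a median effect of 2.59. In eWAT 10 of 34 were called as higher, with a median of 0.91. Of these 34, 33 had a positive effect in eWAT, and 23 were higher at an unadjusted p under 0.05. The medians of all genes tested were 0.01 in liver and 0.02 in eWAT. Stat2 was the liver exception (0.48, adjusted p = 0.117). No member was called as lower in either tissue. The difference was called as larger in liver for 14 of 31, with a median of 1.56 against -0.02 for all genes. The 10 shared members were Gbp7, Ifi44, Ifit1, Ifit3, Iigp1, Irf7, Irf9, Isg15, Rsad2 and Rtp4, and 5 others had a larger effect in liver, among them Ifih1, Ifit2, Oasl1 and Xaf1.

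The liver count stood at 26 to 30 without any 1 library and at 29 without liver HPD 1, where the list's median effect was 2.21. The eWAT count was 6 without eWAT HPD 3, its lowest, and leaving out a liver library could not change it. The count of differences was 5 without liver NPD 3 and 6 without eWAT NPD 1 or eWAT HPD 4. It was 7 without eWAT NPD 2, eWAT NPD 4 or liver NPD 4, and 8 without eWAT NPD 3 or liver NPD 1. Without eWAT HPD 2 or liver HPD 1 it was 9. Fits that added the vehicle libraries called 30, 4 and 5. Macrophage markers, 12 genes, summed to 375 CPM in liver HPD 1 and to 198 to 218 CPM in the other HPD livers, against 167 to 267 CPM in the NPD livers, and their part in these effects was not tested.

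**Figure D2:**
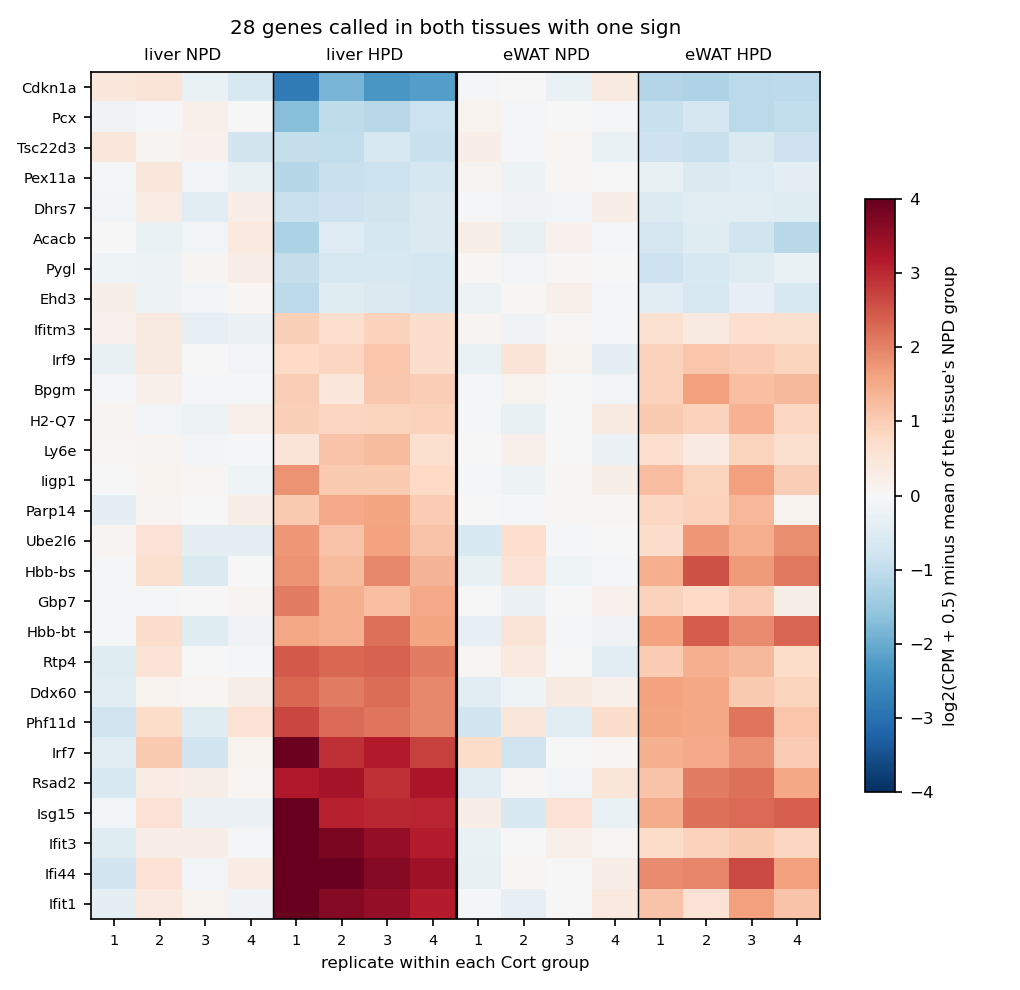
Of the 29 shared genes, 28 by library, as log2(CPM + 0.5) minus the mean of the NPD group of the same tissue, with 8 liver and 8 eWAT libraries in columns and colours that saturate at 4 in either direction. The 20 genes higher on the HPD include the interferon-stimulated and red cell genes, the 8 lower ones include Cdkn1a and Tsc22d3, and liver HPD 1 has the strongest colours for many interferon-stimulated genes.

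Some shared genes are known from red blood cells. Both adult β-globin genes, Hbb-bs and Hbb-bt, rose in both tissues, as did Bpgm, which is abundant in red cells, but Alas2, Slc25a37 and Tent5c, described with the effects that differed, were not called in liver. Hbb-bt stood at 219, 371, 161 and 206 CPM in the NPD livers and at 663, 626, 1046 and 677 CPM in the HPD livers, with 407, 734, 490.0 and 465 CPM and 1558, 2749, 1889.7 and 2554 CPM in eWAT. The effects were 1.65 ± 0.25 (SE; adjusted p = 0.00108) and 2.06 ± 0.25 (SE; adjusted p = 0.0108). The eWAT call was lost without eWAT NPD 3 or eWAT NPD 4, with an adjusted p of up to 0.0645. Hbb-bs and Hbb-bt are near-identical copies, so the division of reads between them is uncertain.

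Bpgm, which makes the bisphosphoglycerate that lowers the oxygen affinity of haemoglobin, stood at 10.6, 12.8, 10.7 and 10.5 CPM in the NPD livers and at 22.5, 14.9, 24.1 and 22.3 CPM in the HPD livers. In the pads it was at 14.4 to 17.0 CPM on the NPD and at 29.8, 49.8, 36.5 and 38.6 CPM on the HPD, and no groups overlapped. The effects of 0.91 ± 0.18 (SE; adjusted p = 0.00868) and 1.32 ± 0.17 (SE; adjusted p = 0.000236) were called in every fit without 1 library. The summed level of 6 red cell markers was 1294 to 3398 CPM in the NPD livers and 5080 to 7309 CPM in the HPD livers, and 3517 to 6351 CPM and 12416 to 25336 CPM in eWAT, where the HPD pads were all above the NPD pads. In bulk tissue, more or fewer cells of a type and more or less RNA per cell cannot be told apart.

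The 8 genes that fell in both tissues were Cdkn1a, Pcx, Tsc22d3, Pygl, Acacb, Pex11a, Dhrs7 and Ehd3. Cdkn1a, the cell cycle inhibitor p21 and a known target of the glucocorticoid receptor, fell most. It stood at 49.6, 53.2, 30.9 and 23.6 CPM in the NPD livers and at 4.89, 9.80, 7.04 and 7.66 CPM in the HPD livers. In eWAT it stood at 250.01, 258, 219.6 and 336 CPM and at 117, 110.2, 124 and 128 CPM. The effects were -2.41 ± 0.27 (SE; adjusted p = 0.000168) and -1.15 ± 0.12 (SE; adjusted p = 3.89e-05), called in every fit without 1 library, but with the vehicle libraries in the fit the adjusted p was 0.113 in liver (0.0667 without 1 vehicle library, liver HPD Veh 4) and 0.123 in eWAT. The difference of -1.25 ± 0.32 (SE; adjusted p = 0.0418) was called in only 4 of the 16 fits without 1 library.

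Tsc22d3, which encodes GILZ, a leucine zipper protein induced by glucocorticoids, stood at 144, 112, 118 and 62.5 CPM in the NPD livers and at 54.1, 52.3, 66.3 and 56.1 CPM in the HPD livers. The lowest NPD liver lay below the highest HPD liver, which makes it the 1 shared gene of 29 whose groups overlapped in a tissue, where the groups were apart in both tissues for 142 of all 10594 genes (1.34%) and the shared genes were chosen by tests of the same values. In eWAT it stood at 575, 449.7, 498 and 396 CPM and at 269.6, 257, 318 and 268 CPM. Its effects were -0.93 ± 0.21 (SE; adjusted p = 0.0178) and -0.79 ± 0.12 (SE; adjusted p = 0.000767). The liver call was lost without liver NPD 1, liver NPD 3, liver HPD 2 or liver HPD 4 (adjusted p up to 0.0586), and with the vehicle libraries both calls were lost (0.208, or 0.0833 without liver HPD Veh 4, and 0.439).

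Pcx, pyruvate carboxylase, which fills the citric acid cycle for glucose synthesis in liver and for citrate export in fat, stood at 145, 154, 185 and 162 CPM in the NPD livers and at 48.6, 79.7, 74.1 and 87.7 CPM in the HPD livers. Levels in eWAT were 502, 438, 453 and 445 CPM and 246, 285, 216 and 233 CPM. The effect of -1.16 ± 0.18 (SE; adjusted p = 0.00151) in liver and of -0.91 ± 0.10 (SE; adjusted p = 5.95e-05) in eWAT was called in every fit without 1 library and with the vehicle libraries added, and the difference was -0.25 ± 0.21. Acacb, the acetyl-CoA carboxylase of the mitochondrial surface, had nearly the same effect in liver (-0.76 ± 0.19, adjusted p = 0.0312) and eWAT (-0.77 ± 0.14, adjusted p = 0.00618). Its liver call was lost in 5 of 8 fits without 1 library, with an adjusted p of up to 0.0968.

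Pygl, the liver form of glycogen phosphorylase, stood at 632, 608, 765 and 850.3 CPM in the NPD livers and at 368, 451, 456 and 432 CPM in the HPD livers. The eWAT values were 423, 379.9, 426 and 421 CPM on the NPD and 233, 271, 296 and 346 CPM on the HPD, so that no groups overlapped. The effects were -0.74 ± 0.17 (SE; adjusted p = 0.0168) and -0.53 ± 0.11 (SE; adjusted p = 0.021). The liver call was lost without liver NPD 3 or liver NPD 4 (adjusted p up to 0.0559) and the eWAT call in 6 of 8 fits (up to 0.109).

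A wider count of shared effects, with the mean of both effects called and an unadjusted p under 0.05 with the same sign in each tissue, held 164 genes, 87 higher and 77 lower on the HPD. It contained 23 of the 31 interferon-stimulated genes. In 67 of the 164 the HPD and NPD libraries did not overlap in either tissue, against the 1.34% of all genes given above, and these genes too were chosen by tests of the same values.

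Gsn, gelsolin, which severs actin filaments (ENSMUSG00000026879, GRCm38 chr2:35256380-35307892), was the only one of the 76 opposite genes that was called in both tissues. It stood at 11.8, 10.42, 22.4 and 11.8 CPM in the NPD livers and at 6.11, 4.71, 7.63 and 5.16 CPM in the HPD livers, and in eWAT at 5084, 6379, 5451 and 4389 CPM and 10470.1, 8968, 10823 and 9432 CPM. Neither tissue's groups overlapped. The effects were -1.26 ± 0.25 (SE; adjusted p = 0.00869) and 0.90 ± 0.11 (SE; adjusted p = 6.19e-05), with a difference of -2.16 ± 0.30 (SE; adjusted p = 0.00043). The liver level was 0.131% of that in eWAT, and the highest liver value came from liver NPD 3, the library with muscle markers, without which the liver effect was still called at -0.95.

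Acss2, which makes acetyl-CoA from acetate for lipid synthesis, stood at 303, 205, 186 and 285 CPM in the NPD pads and at 53.6, 95.2, 49.9 and 57.7 CPM in the HPD pads, an effect of -1.94 ± 0.25 (SE; adjusted p = 0.00914). In liver it stood at 52.9, 52.4, 32.0 and 75.4 CPM on the NPD and at 50.2, 95.6, 84.4 and 83.6 CPM on the HPD, where the groups overlapped (0.56 ± 0.24 SE, adjusted p = 0.205, unadjusted p = 0.0362). The difference of 2.50 ± 0.38 (SE; adjusted p = 0.00313) was called in all 16 fits without 1 library. The eWAT call was lost without eWAT HPD 4 (adjusted p = 0.0607), while the effect stayed between -2.19 and -1.82 in every alternative.

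Mt2, a metallothionein that binds zinc and copper and responds to glucocorticoids, stood at 948, 959.6, 805 and 1360.4 CPM in the NPD livers and at 2254, 1938, 2923 and 2281 CPM in the HPD livers. In eWAT it stood at 2455, 2463, 3169.6 and 2146 CPM and at 2008, 1623, 2272 and 1627 CPM, with overlap. The effects were 1.21 ± 0.20 (SE; adjusted p = 0.00194) and -0.44 ± 0.13 (SE; adjusted p = 0.142), and the difference was 1.65 ± 0.26 (SE; adjusted p = 0.00153). Mt1, next to it on chromosome 8, rose in liver by 1.61 ± 0.23 (SE; adjusted p = 0.000538) while its eWAT effect was -0.19 ± 0.12, and its difference was 1.80 ± 0.28 (SE; adjusted p = 0.00158). With the vehicle libraries in the fit, neither the liver effects (adjusted p = 0.345 for Mt2 and 0.118 for Mt1) nor the differences (0.277 and 0.144) passed.

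Ctsl, the lysosomal protease cathepsin L, stood at 447, 614, 421 and 521 CPM in the NPD livers and at 1102, 971, 1052 and 921 CPM in the HPD livers. The eWAT values ran the other way, 639, 694, 612 and 609 CPM on the NPD and 537, 531, 463 and 468 CPM on the HPD. No groups overlapped. The effects were 1.01 ± 0.17 (SE; adjusted p = 0.00214) in liver and -0.35 ± 0.09 (SE; adjusted p = 0.0835) in eWAT, and the difference was 1.37 ± 0.19 (SE; adjusted p = 0.00043). For H2-Q10, a secreted class I molecule made by liver, the difference was 1.96 ± 0.34 (SE; adjusted p = 0.00454), with 0.41 ± 0.17 in liver and -1.51 ± 0.36 in eWAT, where it was at no more than 13.7 CPM and its own call was lost in 6 of 8 fits without 1 library.

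Alas2, the first enzyme of haem synthesis in red cell precursors, had the largest difference of the 76 opposite genes. Its eWAT levels were 15.97, 19.1, 15.8 and 18.4 CPM on the NPD and 57.6, 109.8, 59.2 and 78.8 CPM on the HPD, an effect of 2.14 ± 0.19 (SE; adjusted p = 9.20e-06). The liver levels were 77.8, 50.9, 52.3 and 39.2 CPM on the NPD and 27.4, 32.0, 40.9 and 35.7 CPM on the HPD (-0.69 ± 0.20 SE, adjusted p = 0.0576). The difference was -2.83 ± 0.30 (SE; adjusted p = 2.76e-05). In liver the NPD and HPD groups overlapped, and in eWAT they did not. Slc25a37, mitoferrin, the iron importer of mitochondria, and Tent5c, a poly(A) polymerase, also had a larger effect in eWAT, with 1.41 ± 0.18 (SE; adjusted p = 0.000207) and 1.44 ± 0.30 (SE; adjusted p = 0.0168) there, the latter lost in 4 of 8 fits without 1 library. In liver their effects were 0.26 ± 0.17 and -0.43 ± 0.22. The difference of -1.15 for Slc25a37 was lost in 3 of the 16 fits without 1 library (adjusted p up to 0.0566). That of -1.87 for Tent5c was called in all 16. The red cell marker sum given above, which includes Alas2 itself, moved with these eWAT values. In liver that sum also rose on the HPD, while the effects there were negative for Alas2 and Tent5c and positive for Slc25a37. The part of red cells was not tested.

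Rapgef1, an exchange factor for the GTPase Rap1, stood at 58.4, 53.5, 65.9 and 62.8 CPM in the NPD livers and at 33.1, 32.7, 32.0 and 33.9 CPM in the HPD livers, against 99.7, 80.2, 83.0 and 78.6 CPM and 111, 105, 106 and 102 CPM in eWAT. The HPD livers were all below and the HPD pads all above their NPD groups. The difference of -1.18 ± 0.17 (SE; adjusted p = 0.00043) was made up of -0.87 ± 0.14 in liver and 0.31 ± 0.11 in eWAT, and Fam102a had a difference of -1.65 ± 0.26 (SE; adjusted p = 0.0015) (-1.14 ± 0.17 and 0.52 ± 0.23). Other opposite genes that were higher on the HPD in liver and lower in eWAT were Insig1, Ugp2, Tpi1, Sdsl, Uqcr10 and Cox6b1, and those with the reverse signs included Fn1, C1ra, Csf1r, Egfl7, Lfng and Nfia.

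**Figure D3:**
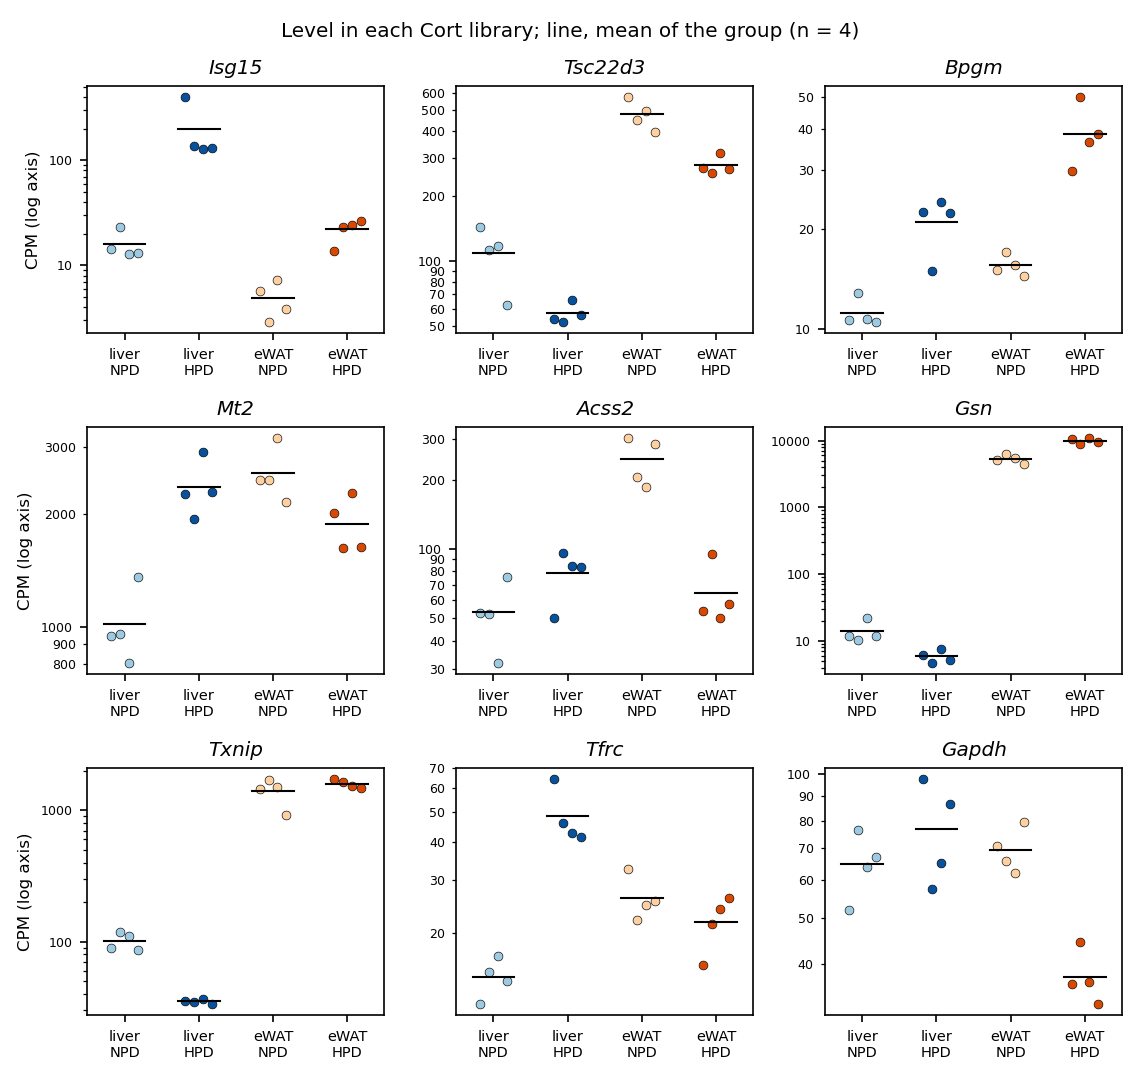
CPM by library on a logarithmic axis for 9 genes, with 4 points and a line at the mean for each of the NPD and HPD groups of liver and eWAT, all under Cort. Isg15 and Bpgm are higher and Tsc22d3 is lower on the HPD in both tissues, Mt2, Acss2 and Gsn have effects of opposite sign, Txnip and Tfrc separate by diet in liver only, and Gapdh separates in eWAT only.

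Among the 104 genes with a larger effect in liver, Tfrc rose there and Txnip, Khk, Ppp1r3b and Plin4 fell. Tfrc, the transferrin receptor (ENSMUSG00000022797, GRCm38 chr16:32608920-32632794), stood at 11.7, 14.8, 16.7 and 13.9 CPM in the NPD livers and at 64.3, 46.1, 42.8 and 41.4 CPM in the HPD livers. The eWAT values overlapped, at 32.4, 22.0, 24.7 and 25.6 CPM and 15.6, 21.4, 23.99 and 26.1 CPM. The liver effect was 1.77 ± 0.18 (SE; adjusted p = 3.70e-05), the eWAT effect -0.26 ± 0.19 (SE; adjusted p = 0.647) and the difference 2.03 ± 0.26 (SE; adjusted p = 0.000284). Hamp, the hormone hepcidin that blocks iron export and that was at 0 in every eWAT library, fell in liver from 353, 318, 249 and 335 CPM to 145, 106, 139 and 117 CPM, with an effect of -1.31 ± 0.17 (SE; adjusted p = 0.000227).

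Txnip, an arrestin-like protein whose gene is induced by glucose through ChREBP, stood at 89.9, 118, 110.4 and 85.9 CPM in the NPD livers and at 35.1, 35.0, 36.7 and 33.7 CPM in the HPD livers. The pads were at 1454, 1709.7, 1518 and 922 CPM and 1726, 1639.7, 1538 and 1476 CPM. The liver effect of -1.52 ± 0.15 (SE; adjusted p = 3.11e-05) met 0.19 ± 0.15 (SE; adjusted p = 0.705) in eWAT, a difference of -1.71 ± 0.23 (SE; adjusted p = 0.000309). Pklr, the liver pyruvate kinase and another ChREBP target, was measured in liver only and fell with an effect of -1.58 ± 0.23 (SE; adjusted p = 0.000898). Khk, ketohexokinase, which starts fructose breakdown, fell in liver from 707, 791, 547 and 673 CPM to 332, 413, 295 and 359 CPM (-0.96 ± 0.17 SE, adjusted p = 0.00398), with a difference of -1.52 ± 0.30 (SE; adjusted p = 0.0103). Its level in eWAT was only 3.76 to 11.2 CPM, and with the vehicle libraries the adjusted p of the difference was 0.108 (0.016 without liver HPD Veh 4). Of the list of the pentose phosphate pathway, ChREBP and Txnip, 2 of 14 genes fell in liver (median -0.31) and 4 of 14 in eWAT (median -0.24), and none rose.

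Glycogen genes moved apart in liver. Ppp1r3b, which brings the activating phosphatase to glycogen, stood at 307, 228, 399 and 254 CPM in the NPD livers and at 120.2, 113, 102 and 96.1 CPM in the HPD livers (-1.46 ± 0.18 SE, adjusted p = 0.000204), with 0.40 ± 0.34 in eWAT and a difference of -1.88 ± 0.34 (SE; adjusted p = 0.00755). Ugp2, which makes UDP-glucose, rose in liver by 0.77 ± 0.19 (SE; adjusted p = 0.0314), lost in 4 of 8 fits without 1 library, and had a difference of 1.12 ± 0.23 (SE; adjusted p = 0.0135). Gys1, the muscle glycogen synthase, fell with an effect of -2.69 ± 0.52 (SE; adjusted p = 0.00691) in liver, where its level was 1.40 to 5.84 CPM on the NPD with the highest value in the library that held muscle markers, and the effect was -2.02 or lower and called in every fit without 1 library. Over the glycogen list, 1 of 14 genes rose and 3 fell in liver (median -0.08), and 1 of 15 rose and 2 fell in eWAT (median -0.28).

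Csad, which makes hypotaurine from cysteine sulfinate on the way to taurine, stood at 192, 135, 104 and 150.3 CPM in the NPD livers and at 58.5, 36.2, 52.4 and 48.5 CPM in the HPD livers (-1.57 ± 0.20 SE, adjusted p = 0.000223). Its eWAT levels were 302, 224, 305 and 233 CPM and 307, 293, 308 and 256 CPM (0.13 ± 0.12), and the difference was -1.70 ± 0.24 (SE; adjusted p = 0.000495). Retsat, retinol saturase, fell in liver with an effect of -1.36 ± 0.18 (SE; adjusted p = 0.000273) against 0.06 ± 0.14 in eWAT, and Hdac7, a class IIa histone deacetylase, with an effect of -1.31 ± 0.24 (SE; adjusted p = 0.00516) against 0.20 ± 0.12. Shisa5 rose in liver by 1.56 ± 0.18 (SE; adjusted p = 9.30e-05) against 0.03 ± 0.10 in eWAT, and Acsl4, an acyl-CoA synthetase that prefers arachidonate, by 0.90 ± 0.17 (SE; adjusted p = 0.00486) against -0.31 ± 0.16. All 5 differences were called in each of the 16 fits without 1 library.

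The 18 genes with a larger effect in eWAT included Gapdh, Mpc1, Mpc2, Pdhb and Slc25a1, all lower there on the HPD. Gapdh, a glycolytic enzyme often used as a reference gene, stood at 70.9, 65.7, 62.0 and 79.5 CPM in the NPD pads and at 36.3, 44.4, 36.6 and 32.9 CPM in the HPD pads. The liver values overlapped, at 52.0, 76.6, 63.8 and 66.9 CPM and 97.7, 57.3, 65.1 and 86.7 CPM. The effects were -0.89 ± 0.13 (SE; adjusted p = 0.000578) in eWAT and 0.24 ± 0.19 (SE; adjusted p = 0.491) in liver, with a difference of 1.13 ± 0.23 (SE; adjusted p = 0.0118). Gapdh has many processed pseudogenes, so its counts are uncertain.

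Both subunits of the mitochondrial pyruvate carrier, Mpc1 and Mpc2, and Pdhb, a subunit of pyruvate dehydrogenase, were lower in eWAT on the HPD. Mpc1 stood at 79.6, 69.5, 56.1 and 65.1 CPM in the NPD pads and at 25.5, 39.4, 22.8 and 42.5 CPM in the HPD pads (-1.06 ± 0.19 SE, adjusted p = 0.00765), with 0.48 ± 0.24 in liver and a difference of 1.54 ± 0.34 (SE; adjusted p = 0.0195). For Mpc2 the eWAT effect was -0.63 ± 0.10 (SE; adjusted p = 0.00175) and for Pdhb -0.69 ± 0.10 (SE; adjusted p = 0.000897). Their differences, 0.84 ± 0.22 and 0.88 ± 0.21, passed with all libraries and in 3 and 9 of the 16 fits without 1 library. Slc25a1, the citrate carrier that exports acetyl units for lipid synthesis, stood at 603, 443, 457 and 496 CPM in the NPD pads and at 213, 237, 172 and 208 CPM in the HPD pads, an effect of -1.27 ± 0.12 (SE; adjusted p = 9.20e-06). Its difference of 1.39 ± 0.31 (SE; adjusted p = 0.0239) was lost only without eWAT NPD 1 or eWAT HPD 3 (adjusted p up to 0.0555).

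Marc1, a molybdenum enzyme of the outer mitochondrial membrane, had the largest fall among these genes. It stood at 24.1, 31.9, 17.8 and 41.6 CPM in the NPD pads and at 5.53, 5.36, 6.08 and 7.26 CPM in the HPD pads (-2.24 ± 0.25 SE, adjusted p = 3.89e-05). In liver it stood at 272, 214, 256 and 228 CPM and at 210.2, 207, 207 and 208 CPM (-0.22 ± 0.14), and the difference was 2.02 ± 0.26 (SE; adjusted p = 0.000284). Aldh1a7, an aldehyde dehydrogenase with a close paralogue in Aldh1a1, fell in eWAT with an effect of -1.24 ± 0.21 (SE; adjusted p = 0.0173), and Mal2, a membrane protein of vesicle traffic, with an effect of -1.53 ± 0.29 (SE; adjusted p = 0.00914). Both differences (1.58 ± 0.27 and 1.37 ± 0.25) held without any 1 library, while the eWAT call itself was lost in 4 of 8 such fits for Aldh1a7 and in 2 for Mal2. Serping1, the C1 inhibitor of complement, rose in eWAT by 0.50 ± 0.10 (SE; adjusted p = 0.0135) and Gpx3, the plasma glutathione peroxidase, by 0.81 ± 0.17 (SE; adjusted p = 0.04), but these calls were lost in 4 and 5 of 8 fits without 1 library and their differences (-0.70 ± 0.18 and -0.997 ± 0.26) were lost in 12 and 10 of the 16 fits without 1 library.

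Of 27 genes of fatty acid and triglyceride synthesis tested in eWAT, 8 fell and none rose on the HPD, with a median of -0.47. In liver, of 28, Srebf1 rose and Acacb and Lpin1 fell, with a median of -0.32. The difference was called as more positive in liver for Acss2, Insig1, Slc25a1 and Srebf1 of 26 (median 0.36). Me1, malic enzyme, which supplies NADPH, stood at 783, 688, 555 and 897 CPM in the NPD pads and at 204, 290.2, 203 and 250.2 CPM in the HPD pads (-1.63 ± 0.15 SE, adjusted p = 3.89e-05), with -0.40 ± 0.32 in liver. Acaca, the cytosolic acetyl-CoA carboxylase, fell in eWAT with an effect of -1.07 ± 0.12 (SE; adjusted p = 5.95e-05), Thrsp with an effect of -0.85 ± 0.11 (SE; adjusted p = 0.000207) and Fasn, fatty acid synthase, with an effect of -0.94 ± 0.18 (SE; adjusted p = 0.0427). Their differences from liver (1.23 ± 0.40, 0.70 ± 0.48, 0.34 ± 0.30 and 0.50 ± 0.66) did not pass, and Fasn in liver ranged from 66.0 to 421 CPM.

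In liver, Lpin1, the phosphatidate phosphatase that makes diacylglycerol and a known glucocorticoid target, fell with an effect of -1.89 ± 0.34 (SE; adjusted p = 0.0117). Srebf1, the transcription factor that drives fatty acid synthesis genes, rose by 0.96 ± 0.23 (SE; adjusted p = 0.027), while Fasn, one of its targets, had -0.44 ± 0.61. The call of Lpin1 was lost without liver HPD 1 (adjusted p = 0.063) and that of Srebf1 in 4 of 8 fits without 1 library. The eWAT count of 8 was 4 with the vehicle libraries added, and the 4 differences became 2 without TMM factors, without eWAT NPD 1, eWAT HPD 1 or liver NPD 3, and 1 without eWAT HPD 3.

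Of 24 genes of cholesterol synthesis and SREBP2 targets tested in eWAT, Acat2, Cyp51, Dhcr7, Hsd17b7 and Nsdhl fell, and the median was -0.44. None of 26 passed in liver, where the median was 0.19, with 5 higher and 2 lower at an unadjusted p under 0.05 and 2 called by DESeq2. Of the 24 differences, 22 were positive, with a median of 0.51, and Cyp51 and Insig1 were called. Cyp51, which demethylates lanosterol, stood at 83.5, 65.6, 78.3 and 109 CPM in the NPD pads and at 34.5, 49.4, 28.8 and 45.5 CPM in the HPD pads (-1.09 ± 0.18 SE, adjusted p = 0.00603). In liver it stood at 68.0, 69.2, 39.96 and 123 CPM and at 111, 108, 115 and 100.1 CPM (0.53 ± 0.25), so that only in eWAT were the groups apart, and the difference was 1.62 ± 0.36 (SE; adjusted p = 0.0259), lost in 4 of 16 fits without 1 library. The eWAT count was 3 without eWAT NPD 1, eWAT NPD 4, eWAT HPD 2 or eWAT HPD 3, and 0 with the vehicle libraries in the fit. Without any 1 library, 0 to 3 genes were called as higher in liver and 1 to 5 as more positive in liver for the difference. The liver median was highest, at 0.43, without liver NPD 4.

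Of 19 glycolysis genes tested in eWAT, Aldoa, Gapdh, Ldha, Pfkl and Pkm fell, and the median was -0.30. In liver, Pklr alone fell of 21, and the median was -0.10. Pfkl, a phosphofructokinase, stood at 111, 106, 108 and 93.7 CPM in the NPD pads and at 46.6, 59.4, 64.5 and 62.4 CPM in the HPD pads (-0.85 ± 0.12 SE, adjusted p = 0.000427), while the liver effect was -0.02 ± 0.21. Aldoa, aldolase A, fell in eWAT with an effect of -0.78 ± 0.09 (SE; adjusted p = 0.000103). The difference was called for Gapdh and Tpi1 of 17, with a median of 0.32. Tpi1 had 0.72 ± 0.18 (SE; adjusted p = 0.0314), and its call was lost in 10 of the 16 fits without 1 library.

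**Figure D4:**
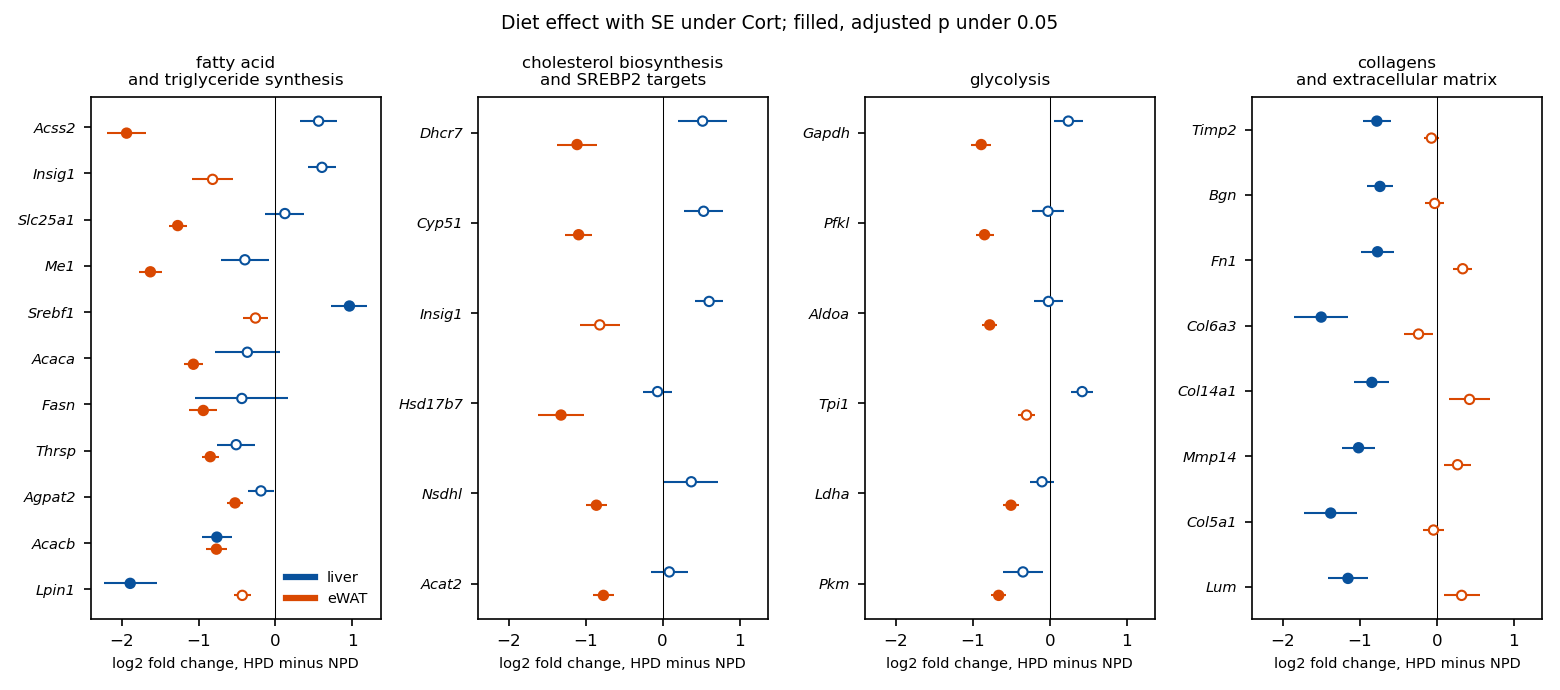
Diet effect (log2 HPD/NPD, with SE bars) in liver and eWAT for the genes of 4 lists measured in both tissues that were called in liver, in eWAT or for the difference, with filled points at an adjusted p under 0.05. Genes of lipid synthesis, cholesterol synthesis and glycolysis lie mostly below 0 in eWAT, with filled points such as Me1 at -1.63, and the matrix genes are filled and below 0 in liver and open in eWAT.

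All 30 collagens and other matrix genes tested in liver had a negative effect on the HPD, with a median of -0.76, and Bgn, Col14a1, Col5a1, Col6a3, Fn1, Lum, Mmp14 and Timp2 passed. In eWAT none of 32 passed, and the median was -0.13, with 2 higher and 4 lower at an unadjusted p under 0.05 and 1 called by DESeq2. The difference was called as more negative in liver for Col5a1, Fn1, Lum, Mmp14 and Timp2, with a median of -0.60. Fn1, fibronectin, stood at 370.2, 359, 607 and 639 CPM in the NPD livers and at 227, 316, 325 and 289 CPM in the HPD livers (-0.77 ± 0.21 SE, adjusted p = 0.0455), and at 94.6, 98.1, 85.5 and 115 CPM and 155, 121, 106 and 115 CPM in eWAT (0.34 ± 0.13). The difference was -1.11 ± 0.26 (SE; adjusted p = 0.0254), lost in 5 of 16 fits without 1 library. Timp2, an inhibitor of matrix metalloproteinases, fell in liver with an effect of -0.78 ± 0.18 (SE; adjusted p = 0.0217), from 10.3 to 12.9 CPM down to 5.29 to 7.26 CPM.

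The liver count of 8 was 14 without liver NPD 1, 4 without liver NPD 3 or liver HPD 1, 3 without liver NPD 4 or liver HPD 2 and 1 without liver HPD 4. The 5 differences became 1 to 3 without any one of the 8 eWAT libraries, 1 without liver NPD 3 or liver NPD 4, 3 without liver HPD 2 and 2 without liver HPD 4. The sum of 8 endothelial markers was 104 to 173 CPM in the NPD livers and 72.7 to 93.9 CPM in the HPD livers, and 503 to 578 CPM and 431 to 566 CPM in eWAT. The hepatocyte markers given above moved the other way in liver, with every HPD library above every NPD library. The part of these cells in the matrix values was not tested.

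A few enzymes of amino acid catabolism rose in liver. Of 38 genes tested there, 6 rose, among them Dbt, Hgd, Mccc2, Oat and Tat, and none fell, with a median of 0.21. None of 26 passed in eWAT or was called there by DESeq2, and 4 were lower at an unadjusted p under 0.05. The eWAT median was -0.03 and turned to 0.02 without TMM factors. Tat, tyrosine aminotransferase, a classical target of the glucocorticoid receptor, stood at 159, 141, 117 and 98.5 CPM in the NPD livers and at 420.1, 322, 318 and 356 CPM in the HPD livers (1.46 ± 0.18 SE, adjusted p = 0.000173). It was not tested in eWAT. The difference was called for Dbt, a subunit of the branched-chain keto acid dehydrogenase (0.65 ± 0.17), and Sdsl, serine dehydratase-like (1.27 ± 0.27), of 26. The liver count was 3 without liver NPD 1, liver NPD 3 or liver HPD 3, 4 without any one of the other liver libraries but liver HPD 1, 9 without liver HPD 1, and 2 without TMM factors or with the vehicle libraries (6 without liver HPD Veh 4).

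Most targets of the glucocorticoid receptor had a negative effect. A positive effect was seen for 4 of 18 in liver and for 3 of 17 in eWAT. At an unadjusted p under 0.05, 3 were higher and 9 lower in liver, and 0 were higher and 4 lower in eWAT. In liver, Mt1, Mt2 and Tat of 18 rose, and Angptl4, Cdkn1a, Fkbp5, Per1 and Tsc22d3 fell, with a median of -0.52. In eWAT, Cdkn1a and Tsc22d3 of 17 fell and none rose (median -0.19). Angptl4, an inhibitor of lipoprotein lipase, stood at 103, 110.1, 109.9 and 73.6 CPM in the NPD livers and at 58.4, 26.9, 33.9 and 38.0 CPM in the HPD livers (-1.34 ± 0.22 SE, adjusted p = 0.0019). Its eWAT values of 504, 429, 506 and 326 CPM and 488, 415, 468 and 364 CPM overlapped, and the difference was -1.31 ± 0.28 (SE; adjusted p = 0.0161). Fkbp5, a chaperone partner of the receptor, fell in liver with an effect of -0.99 ± 0.19 (SE; adjusted p = 0.00709), with -0.39 ± 0.12 in eWAT. The 5 liver genes that fell became 3 without liver NPD 1, liver NPD 3, liver HPD 2 or liver HPD 4. With the vehicle libraries added, 2 fell and none rose in liver (2 and 1 without liver HPD Veh 4) and none passed in eWAT. The receptor itself, Nr3c1, was at 26.6 to 46.4 CPM in liver and 94.4 to 132 CPM in eWAT, and its effects were 0.22 ± 0.17 (SE; adjusted p = 0.479) and 0.14 ± 0.11 (SE; adjusted p = 0.679).

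Other lists showed smaller or uneven effects. Of 17 genes of lipolysis and lipid droplets in liver, G0s2, Mgll, Plin4 and Plin5 fell (median -0.46), and in eWAT Plin2 fell of 19 (median -0.13). Plin4, a coat protein of lipid droplets, had a liver level of 0.137% of that in eWAT and fell there with an effect of -1.76 ± 0.37 (SE; adjusted p = 0.0118), with 0.05 ± 0.16 in eWAT. Of 29 genes of fatty acid oxidation, 4 fell in liver, among them Acot1, Cpt1a and Fabp1 (median -0.33), and the count ranged from 1 to 7 without 1 library. It was 1 without liver NPD 2 or liver HPD 2, 2 without liver HPD 3 or liver HPD 4 and 7 without liver HPD 1.

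Of 35 genes of the respiratory chain, 34 had a positive effect in liver and 3 in eWAT, with medians of 0.24 and -0.15, and all 35 differences were positive. None passed in either tissue or for the difference (edgeR), and 6, 9 and 17 were past an unadjusted p of 0.05. DESeq2 called 1 in each tissue and none for the difference. The median difference of 0.42 was 0.19 without TMM factors. Of 34 cytosolic ribosomal protein genes, whose counts are uncertain because of pseudogenes, the medians were -0.10 and 0.15, and the difference was called for Rpl13 alone. Class I antigen presentation rose for 6 of 15 genes in liver (median 0.78; 3 without liver NPD 3) and for 1 of 14 in eWAT (0.20). H2-Aa and H2-Ab1 of 8 class II genes rose in eWAT (median 0.94) and none of 5 in liver, where none was past an unadjusted p of 0.05. The difference was not called for any class II gene (2 past an unadjusted p of 0.05; 1 called by DESeq2).

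**Figure D5:**
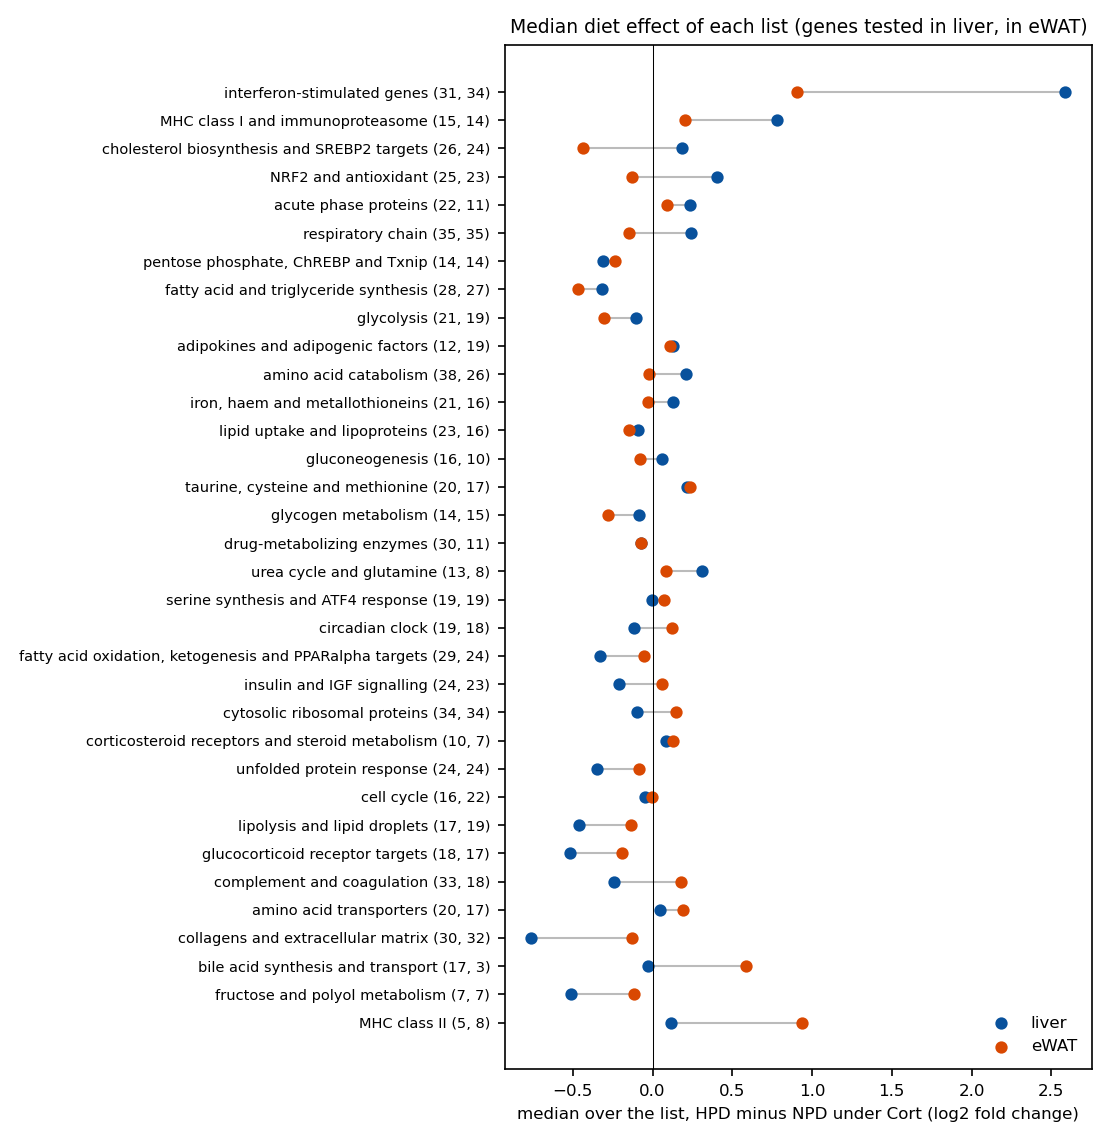
Median diet effect (log2 HPD/NPD) over the tested genes of 34 lists in liver (blue) and eWAT (orange), sorted by the median difference between the tissues. Interferon-stimulated genes have the highest median in liver, 2.59, against 0.91 in eWAT, while lipid and cholesterol synthesis lie to the left in eWAT and matrix genes to the left in liver.

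Genes measured in only 1 tissue could not be compared between tissues. Of the 848 tested in liver only, 51 rose and 39 fell on the HPD, against 298 (2.6%) and 261 (2.28%) of all 11442 tested in liver. Hsd17b6, a hydroxysteroid dehydrogenase that was at 0 in every eWAT library, stood at 8.72, 17.0, 9.31 and 9.92 CPM in the NPD livers and at 139, 100.4, 83.7 and 121 CPM in the HPD livers (3.31 ± 0.23 SE, adjusted p = 9.08e-07). Defb1, a β-defensin, rose by 2.05 ± 0.19 (SE; adjusted p = 1.52e-05), and Apol9a, an interferon-inducible apolipoprotein with a near-identical neighbour in Apol9b, by 2.67 ± 0.28 (SE; adjusted p = 0.000126). Serpina12, the serpin vaspin, stood at 302, 130.4, 304 and 137 CPM in the NPD livers and at 27.4, 23.1, 22.3 and 16.5 CPM in the HPD livers (-3.29 ± 0.31 SE, adjusted p = 6.31e-05). Slc22a7, an organic anion transporter, fell with an effect of -3.502 ± 0.44 (SE; adjusted p = 0.000223) and Wfdc2 with an effect of -2.10 ± 0.25 (SE; adjusted p = 0.000165).

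Of the 2969 genes tested in eWAT only, 4 rose and 16 fell, against 57 (0.42%) and 108 (0.796%) of all 13563 tested in eWAT. Mmp9, a gelatinase of neutrophils and macrophages, stood at 2.51, 3.98, 3.31 and 3.22 CPM in the NPD pads and at 12.2, 8.67, 10.3 and 11.2 CPM in the HPD pads (1.70 ± 0.29 SE, adjusted p = 0.00431). Slc4a1, the anion exchanger of red cells and one of the red cell markers, was at 0.198, 0, 0.0769 and 0.435 CPM on the NPD and at 2.68, 5.05, 3.23 and 5.26 CPM on the HPD (adjusted p = 0.00596). Chrdl1, a BMP antagonist, rose by 0.59 ± 0.13 (SE; adjusted p = 0.0233), lost in 5 of 8 fits without 1 library.

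The genes that fell included Kcnj15, a potassium channel, which stood at 119.7, 155, 169.5 and 202 CPM in the NPD pads and at 68.3, 89.7, 71.8 and 67.1 CPM in the HPD pads (-1.12 ± 0.14 SE, adjusted p = 0.000224). Colq, which anchors acetylcholinesterase, was at 8.45, 4.34, 8.31 and 14.2 CPM on the NPD and at 0.237, 0, 0.841 and 0.376 CPM on the HPD (adjusted p = 0.000469). Ncan, the proteoglycan neurocan, fell with an effect of -2.01 ± 0.30 (SE; adjusted p = 0.000897). Fgf21, a liver hormone of the fasting and protein response, was at 2.13 to 7.78 CPM in liver with an effect of -0.64 ± 0.35 (SE; adjusted p = 0.312), and Gcgr, the glucagon receptor, had -0.39 ± 0.14 (SE; adjusted p = 0.129). Neither was tested in eWAT, where the levels were at most 1.03 and 1.26 CPM.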

How the data were processed

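The authors deposited raw counts per gene for the 3′ libraries, and these whole-number counts were used as deposited. The submitters' processing notes name GRCm38, and the aligner, the counter and its strand setting are not given in the sources used here. Gene IDs were matched to symbols of GENCODE M21 (47224 of 47643 IDs). Genes had to pass edgeR's filterByExpr (minimum count 10, minimum total 15). Each tissue's effect came from its own 8 Cort libraries (edgeR quasi-likelihood test, robust, TMM within tissue), and the difference and the mean of both effects came from a joint fit of 16 libraries on 10594 genes, with 1 mean per group. The p-values were adjusted by Benjamini-Hochberg over all genes tested. The standard error is the log2 effect divided by the square root of F.

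Groups were read from the titles and other labels. Neither separate animals for the replicates nor a shared mouse for same-numbered liver and eWAT libraries is named there, so p-values measure the spread between these samples, which may be technical. For each class and direction, up to 4 genes with the smallest p and an established symbol were named, with up to 3 called genes per direction for genes of 1 tissue, Nr3c1, Fgf21, Gcgr and members of 34 pathway lists where a list is described. Isg15, Ifit3, Bpgm and the other genes outside that rule were chosen after their values were seen. Members and lists were chosen with earlier results of these data known, and no list was tested as a set. Some genes are counted in these classes and lists but are not reported here by name. R 4.3.3, edgeR 4.0.16, limma 3.58.1 and DESeq2 1.42.0 were used, and the fits were tested on simulated data. Alternatives were other scalings, tools and filters, the vehicle libraries, a replicate block and leaving out each library. The 2 alternatives that left out libraries standing apart together, or one vehicle library, were added after seeing the data. Depths of 9794683 to 17447524 counts limit what can be seen for genes of a few counts per library.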

Additional observations from a re-analysis of the deposited data

Results flagged for a closer look

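In groups of 4 libraries, a value was singled out where its gap to the nearest other library, as a share of the range of the group, was above Dixon's critical value at 95%, which chance alone gives in about 1 in 20 groups. With 47 genes named by the rule and 12 marker lists over several groups, several such values are expected by chance alone. Which of the values below these are cannot be told. Pygl was at 379.9 CPM in eWAT NPD 2, below the others of its group at 421 to 425.8 CPM. Gsn was at 22.36 CPM in liver NPD 3 against 10.42 to 11.8 CPM, and Retsat at 129.2 CPM in eWAT HPD 3 against 108.2 to 110.6 CPM. In liver NPD 2, Hsd17b6 was at 17.04 CPM against 8.723 to 9.919 CPM, Apol9a at 20.02 CPM against 7.235 to 8.577 CPM and Wfdc2 at 32.18 CPM against 15.87 to 16.45 CPM. Wfdc2 was also high in liver HPD 2, at 6.219 CPM against 3.939 to 4.327 CPM.

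Marker sums stood apart in 7 cases. Adipocyte markers were at 61.58 CPM in liver NPD 1 (others 87.7 to 92.94 CPM) and at 32110 CPM in eWAT NPD 4 (38140 to 39010 CPM). Epididymis and testis markers were at 14070 CPM in eWAT HPD 4 (1.421 to 14.23 CPM). Skeletal muscle markers were at 565 CPM in liver NPD 3 (1.686 to 6.784 CPM) and at 7.819 CPM in liver HPD 1 (1.247 to 2.005 CPM). Macrophage markers were at 375.5 CPM in liver HPD 1 (198.2 to 218 CPM), and mesothelial markers at 164.5 CPM in eWAT HPD 1 (118.1 to 121.5 CPM). The part of these cells in the diet effects was not tested.

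The diet effect differed between liver and eWAT, by the test of the difference itself, for 28 of the named genes. The opposite, larger in liver and larger in eWAT classes require that call, and their genes were named by its p. Those genes thus passed by definition, and among the classes named below only the shared genes could have failed. On the log2 scale, liver minus eWAT, the shared genes had 1.9059 (Ifi44), 1.3803 (Rsad2), 1.1284 (Rtp4) and -1.2536 (Cdkn1a, lost in 12 of the 16 fits without 1 library). The opposite genes had 1.3678 (Ctsl), 1.6485 (Mt2), 2.4951 (Acss2), 1.959 (H2-Q10), -2.8295 (Alas2), -1.1801 (Rapgef1), -2.1586 (Gsn) and -1.653 (Fam102a). Genes with a larger effect in liver had 2.0318 (Tfrc), 1.525 (Shisa5), 1.8047 (Mt1), 1.2126 (Acsl4), -1.7093 (Txnip), -1.7036 (Csad), -1.4191 (Retsat) and -1.5064 (Hdac7). Genes with a larger effect in eWAT had -1.8671 (Tent5c), -1.1507 (Slc25a37), -0.7038 (Serping1), -0.9967 (Gpx3), 2.0169 (Marc1), 1.5791 (Aldh1a7), 1.3657 (Mal2) and 1.132 (Gapdh).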

How the results depend on the processing

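The alternatives were run on 81 called effects of the genes named by the rule, and none of these changed sign. These genes were named for the smallest p of their class in the same data, which favours keeping the call. Of 2305 recomputed values, 2109 kept direction and side of the threshold and 196 fell below it, and 49 effects kept their call everywhere. For an effect within 1 tissue, these values include the fits without a library of the other tissue. Such fits could not change the effect, so the 2109 overstates how much was put to the test. Counts moved more. For the difference between tissues, 239 genes became 384 with library totals without TMM factors, 501 with DESeq2, 139 with no filter and 157 with the vehicle libraries added (243 without liver HPD Veh 4), and 117 (without liver NPD 3) to 319 (without liver HPD 1) without 1 library. The liver count of 559 became 973 with DESeq2, 990 with voom sample weights, 371 with the vehicle libraries (729 without liver HPD Veh 4) and 291 (without liver NPD 3) to 781 (without liver HPD 1) without 1 library. The eWAT count of 165 became 315 with DESeq2, 265 with no filter and 76 with the vehicle libraries, which no liver library could change. It became 85 with the spread of the joint fit and 80 (without eWAT NPD 1) to 171 without 1 library. The 29 shared genes became 46 with DESeq2, 14 with the vehicle libraries (15 without liver HPD Veh 4) and 16 (without eWAT NPD 1 or eWAT HPD 3) to 36 without 1 library. The 76 opposite genes became 122 with totals, 125 with DESeq2, 48 with no filter and 35 (without liver NPD 3) to 105 without 1 library. The 104 genes larger in liver became 182 with totals, 222 with DESeq2, 68 with voom, 64 with no filter, 68 with the vehicle libraries (122 without liver HPD Veh 4) and 45 (without liver NPD 3) to 139 without 1 library. The 18 genes larger in eWAT became 46 with DESeq2, 10 with no filter, 8 with the vehicle libraries (10 without liver HPD Veh 4) and 5 (without eWAT NPD 1) to 25 without 1 library. The cause of these moves was not tested.

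The labels do not link same-numbered liver and eWAT libraries, so the numbers were not taken as pairs. Such libraries deviated together with a correlation of -0.0138 to 0.0843. The eWAT library of the same number and diet was the best match for liver NPD 1, NPD 3, NPD 4 and HPD 3, and not for the other livers. A low correlation between tissues cannot show whether a mouse was shared. With the number within a diet as a block across the tissues, 177 genes were called for the difference. With the number as a block across the diets within a tissue, 360 genes were called in liver and 122 in eWAT. The labels give no link between same-numbered libraries of different diets. These calls gave 22 shared, 51 opposite, 66 larger in liver and 14 larger in eWAT.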

Other observations

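The vehicle libraries, left out of the main values, gave the diet effect without Cort for the same genes. Liver HPD Veh 4 was left out of that fit, and values with it are not given here. Its weight was large where the vehicle libraries were added to the Cort fit. There, 371 genes were called in liver with it and 729 without it. Of the 29 shared genes, 24 had the same sign in vehicle liver and 23 in vehicle eWAT (82.8% and 79.3%). Of all 10343 genes, 53.2% and 59.3% had the same sign in these tissues. None of the 29 was called in either tissue. Only 6 of the 10343 genes were called in vehicle liver and 4 in vehicle eWAT, so the lack of calls says little about the shared genes. All 18 genes with a larger effect in eWAT had the same sign in vehicle eWAT, with a median effect of -0.55, against 7 in vehicle liver. Of the 104 genes with a larger effect in liver, 73 had the same sign in vehicle liver (70.2%). Of 74 opposite genes, 46 had the same sign in vehicle liver (62.2%) and 57 in vehicle eWAT (77%). Csad was called in vehicle liver, at -1.99 (adjusted p = 3.8e-05), and Gapdh in vehicle eWAT, at -1.08 (adjusted p = 0.0245). Whether the diet effect differed between Cort and vehicle was not tested here.

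Markers of brown adipocytes, 5 genes at a low level, summed to 17.1 to 22.6 CPM in the NPD pads and to 8.61 to 9.70 CPM in the HPD pads, without overlap. The same markers summed to 27.0 to 117 CPM in the NPD livers and to 20.9 to 58.9 CPM in the HPD livers, so the sum is not particular to brown adipocytes. In each group 1 of the 5 had no counts. Exocrine pancreas markers summed to 16.3 to 22.4 CPM and to 6.27 to 14.9 CPM in the pads, and to 16.7 to 22.5 CPM and 16.6 to 24.3 CPM in the livers. These are levels with no test.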
